A study of Homo sapiens with 3 samples.

Results

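Fibronectin, the integrins and the focal adhesion proteins were described as a set of 37 genes listed by symbol, under a rule that names genes and sets no limit on their values. The table holds 36 of the 37 among 19049 usable gene entries, and ITGA8 was not analysed here. RNA came from the established cell line MDA-MB-231, grown from a human basal-like breast cancer, in cells whose KAP1 had been depleted by a short hairpin RNA and replaced by a re-expressed form. The 3 groups were cells with S473D KAP1, in which aspartate stands in place of a serine and imitates its phosphorylated state, cells with S473A KAP1, in which alanine blocks phosphorylation there, and cells with wild-type KAP1 (wt). All 3 groups share the line, the hairpin and the serum-containing medium, and nothing in the labels says whether the cells were clones or pools. KAP1 is the product of TRIM28, and zinc finger proteins bring it to chromatin as a corepressor. The comparisons ask how transcript levels differ between cells with each substitution and cells with wt KAP1, and between the substitutions.

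Fibronectin is a large secreted glycoprotein of the extracellular matrix. Integrins are transmembrane receptors made of 1 alpha and 1 beta chain, and the alpha chain largely sets which matrix protein is bound. Inside the cell, talin and kindlin bind the beta tail and activate the receptor, vinculin, alpha-actinin, filamin and tensin tie it to actin, and the kinases FAK and SRC with their substrates pass on the signal. In mesenchymal-like carcinoma lines such as MDA-MB-231 these structures carry spreading and migration.

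Each group is 1 library, so there is no replicate error, no test of a difference exists and no p-value is given. Every value below describes these libraries. Levels are in RPKM, read numbers scaled to gene length and library depth, which allows levels of different genes to be compared. The depth was estimated at 24000000 counted reads for S473D, 29500000 for S473A and 25800000 for wt. Differences are of log2(RPKM + 1), so those of genes with low levels come out smaller than the ratio of levels. Intervals beside ratios of RPKM are 95% intervals from estimated read numbers and cover counting error only. The level of TRIM28 was 25.6 RPKM in S473D, 32.3 in S473A and 28.7 in wt. Of 8 markers fixed for this line, 7 were above 1 RPKM in every library, among them VIM, CD44 and AXL, and SPARC was at most 0.21 RPKM. Of 8 luminal markers, CDH1, EPCAM, ESR1 and PGR stayed below 1 RPKM in every library. The other 4 were above it in every library, with KRT8 at 126 to 178 RPKM, ERBB2 at 5.34 to 7.94, GATA3 at most at 1.83 and FOXA1 at most at 1.96. The leukocyte and endothelial markers found in the table were below 1 RPKM in every library, and among the fibroblast markers COL1A1 stood at 1.63 to 1.66 RPKM.

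Most of the adhesion genes had their lowest level in cells with S473D KAP1, and fibronectin was lower in both substitutions than in wt. Averaged over the libraries, 28 of the 36 genes reached 1 RPKM, and the differences below concern those. In bulk RNA, fewer cells expressing a gene and less RNA per cell cannot be told apart. S473D was the lowest of the 3 libraries for 25 of the 28 genes and the highest for none, where it was the lowest for 57.1% and the highest for 35.7% of the 11578 genes tested. The set summed to 1287 RPKM in S473D, 1555 in S473A and 1563 in wt, while RPKM summed over all genes was 393381 in S473D, 330916 in S473A and 330667 in wt. The largest difference from wt in the set was that of TNS1 in S473D and the next that of FN1 in S473A.

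**Figure D1:**
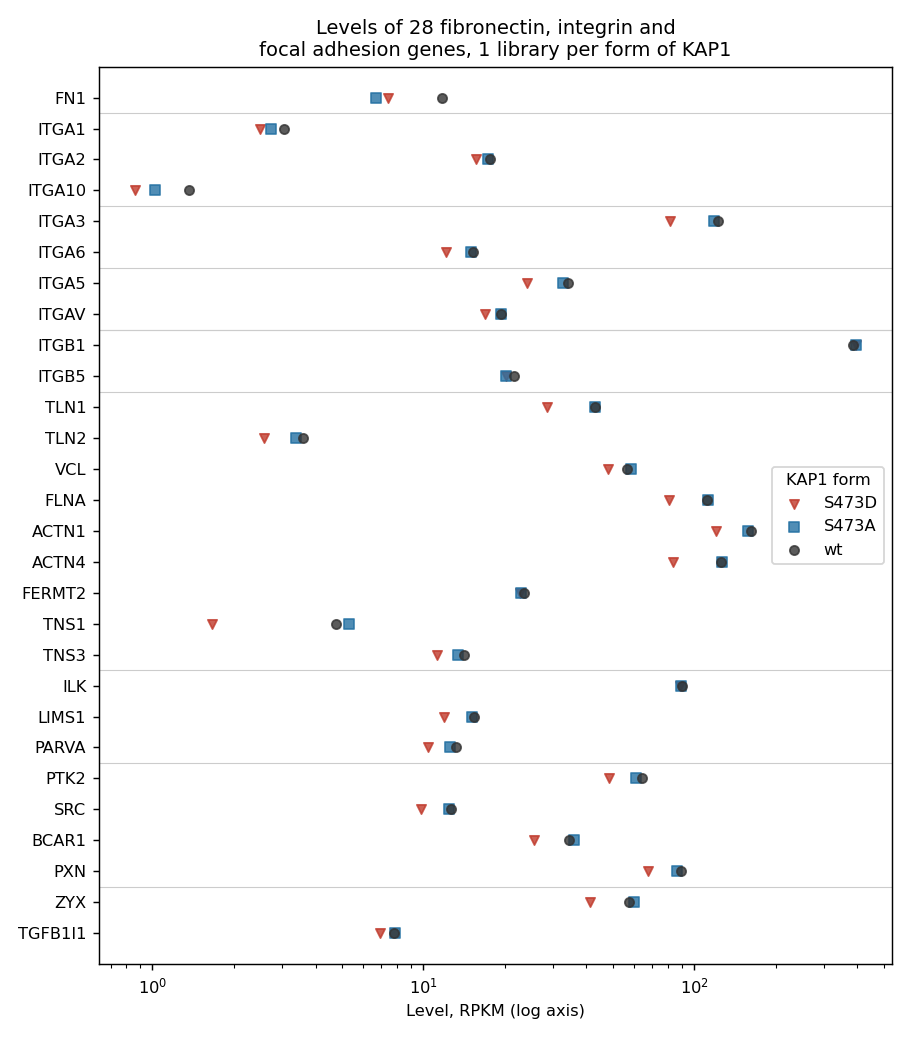
Levels of the 28 genes that averaged 1 RPKM or more, in RPKM on a log axis, with 1 point per library (triangles S473D, squares S473A, circles wt) and lines between the groups of genes by role. The S473D point lies left of the other two for 25 genes, and the FN1 points of S473D (7.43) and S473A (6.67) both lie left of that of wt (11.7).

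FN1, the gene of fibronectin, had 7.43 RPKM in S473D, 6.67 in S473A and 11.7 in wt. Both libraries with a substituted KAP1 lay below wt. The RPKM ratio was 0.569 for S473A over wt (interval 0.535 to 0.604) and 0.634 for S473D over wt (interval 0.595 to 0.674), and these ratios share the wt library. The ratio of S473D over S473A was 1.11 (interval 1.04 to 1.19). On the log2 scale the differences were -0.73 for S473A minus wt, -0.59 for S473D minus wt and 0.14 for S473D minus S473A. Both differences that involve S473D depended on the scaling. S473D minus wt was -0.49 centred on the median of all genes and -0.31 with trends on transcript length and GC content removed. S473D minus S473A was 0.24 and 0.42 in the same order. In S473A minus wt, 5 of the 11578 genes tested had a lower difference, and none of the 821 genes with transcripts of 8 kb or more did. In S473D minus wt, 329 genes were lower than FN1. With the trends removed, FN1 ranked 2143 from the lowest of 10786 genes in that comparison. An estimated 1589 reads in S473D, 1752 in S473A and 2694 in wt lie behind these values.

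The sequence before the start of FN1 is shown because FN1 is the member lower than wt by 1.5-fold with both substitutions. It holds a cAMP response element (letters TGACGTCA, the same on both strands) and, downstream of it, a CCAAT box (letters CCAAT on either strand), both marked in capitals. The stretch is RefSeq's, GRCh38.p14 chr2:215436069-215436318, minus strand, the 250 bases before the start, and the first motif begins 183 bases before it.
FN1: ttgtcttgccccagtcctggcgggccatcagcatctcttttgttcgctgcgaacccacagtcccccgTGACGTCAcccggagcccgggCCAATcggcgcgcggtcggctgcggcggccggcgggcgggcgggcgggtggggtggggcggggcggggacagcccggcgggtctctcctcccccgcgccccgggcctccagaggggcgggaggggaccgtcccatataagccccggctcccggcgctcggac
The cAMP response element occurs in 1.65% of all 35116 such windows and the CCAAT box in 32%. RefSeq windows were found for 28 of the 36 genes in the table, 53 windows in all since several genes have more than 1 start, and FN1 was the only one with the response element. That is 1.89% of the 53 windows, near the share of all windows, and the CCAAT box occurs in 18.9% of them. A GC box (letters GGGCGG on either strand) was also searched and is not marked. It occurs in 56.6% of the 53 windows, FN1 included, against 42.6% of all windows. These matches describe letters and say nothing of which factor binds.

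The alpha chains that averaged 1 RPKM or more were all lower in S473D than in wt, and close to wt in S473A with ITGA10 as the largest departure. ITGA3, whose product pairs with beta 1 as a laminin receptor, was the highest alpha chain, at 81.2 RPKM in S473D, 118 in S473A and 123 in wt. S473D stood below both other libraries, which lay near each other. Its ratio was 0.662 for S473D over wt (interval 0.645 to 0.679), a log2 difference of -0.59, and 0.966 for S473A over wt (interval 0.945 to 0.987). ITGA6, the other laminin-binding chain above 1 RPKM, had 12.1 RPKM in S473D, 15.0 in S473A and 15.3 in wt. ITGA5, which with beta 1 forms the classic fibronectin receptor, had 24.0 RPKM in S473D, 32.8 in S473A and 34.3 in wt. The ratio of ITGA5 was 0.702 for S473D over wt (interval 0.668 to 0.738) and 0.959 for S473A over wt (interval 0.918 to 1.002). ITGAV, the alpha chain of the vitronectin receptors, had 16.9 RPKM in S473D, 19.4 in S473A and 19.4 in wt. The RPKM of FN1 per RPKM of ITGA5 was 0.309 in S473D, 0.203 in S473A and 0.342 in wt.

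Among the collagen-binding alpha chains, ITGA2 had 15.6 RPKM in S473D, 17.3 in S473A and 17.7 in wt. ITGA1 had 2.49 RPKM in S473D, 2.73 in S473A and 3.06 in wt. ITGA10 had 0.862 RPKM in S473D, 1.02 in S473A and 1.36 in wt. All 3 collagen-binding chains had the order S473D, S473A, wt from low to high, but not every step lay beyond counting error. The S473D over S473A interval includes 1 for ITGA1 (0.824 to 1.01) and ITGA10 (0.654 to 1.08). That of S473A over wt includes 1 for ITGA2 (0.939 to 1.03). With trends on length and GC content removed, S473D minus S473A was 0.14 for ITGA10, -0.07 for ITGA1 and -0.11 for ITGA2. The S473A over wt ratio was 0.750 for ITGA10 (interval 0.604 to 0.935) and 0.892 for ITGA1 (interval 0.811 to 0.982). For S473D over wt the ratio of ITGA10 was 0.632 (interval 0.495 to 0.806). That is past 1.5-fold in RPKM, but at this low level the difference of log2(RPKM + 1) was -0.34, short of 1.5-fold. Exons of ITGA1 overlap those of PELO on the same strand in GENCODE, so reads of the pair may have been shared.

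ITGB1, the beta chain that most of these alpha chains pair with, was the most abundant transcript of the set. It had 395 RPKM in S473D, 397 in S473A and 386 in wt, with a ratio of 1.03 for S473D over wt (interval 1.01 to 1.04). Its log2 difference of 0.04 was the only one above 0 in the set for S473D minus wt, and with the trends on length and GC content removed it was below 0, at -0.08. ITGB5, which pairs with the alpha V chain, had 20.2 RPKM in S473D, 20.1 in S473A and 21.6 in wt. Summed over the 11 alpha chains in the table the level was 154 RPKM in S473D, 207 in S473A and 214 in wt, while the 6 beta chains summed to 417, 418 and 409 RPKM in the same order. The level of ITGB1 was 2.58 times that of all alpha chains in S473D, 1.91 times in S473A and 1.80 times in wt. These ratios keep the trends on length and GC content. With them removed, S473D minus wt was -0.08 for ITGB1 and -0.29 for ITGA3, against 0.04 and -0.59 before. ITGA3 made up 52.9% of the alpha sum in S473D, 57.1% in S473A and 57.2% in wt, and ITGB1 made up 94.4% to 94.9% of the beta sum.

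**Figure D2:**
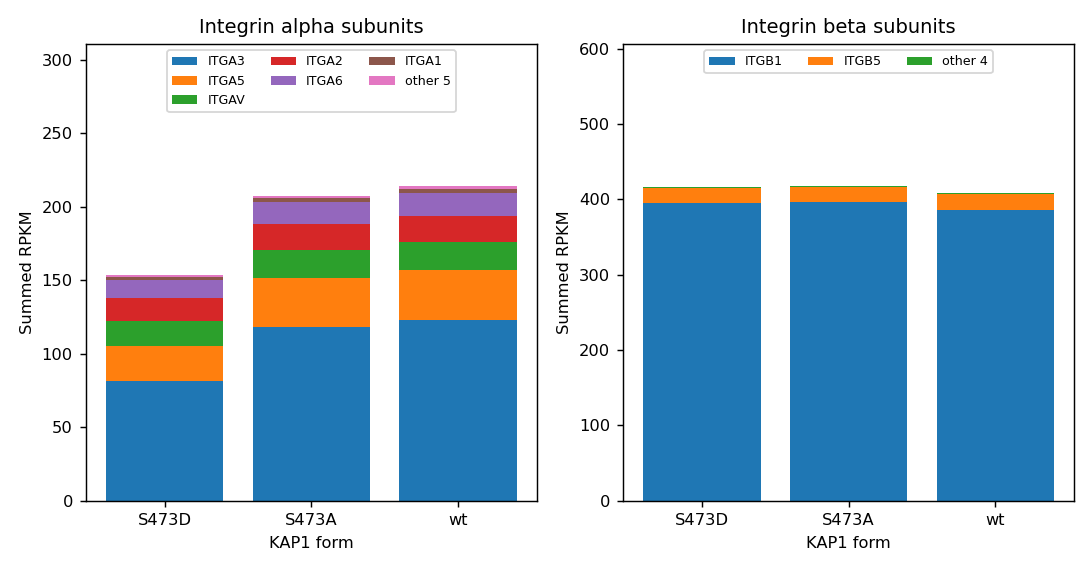
Summed RPKM of the integrin alpha chains (left) and beta chains (right) in the 3 libraries, with segments for single genes. The alpha bar is lower in S473D (154 RPKM) than in S473A (207) and wt (214), mostly through ITGA3, and the beta bars, nearly all ITGB1, are of like height (417, 418 and 409).

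The other integrin genes of the set had low levels. ITGA4, ITGA7, ITGA9, ITGA11, ITGB3, ITGB4, ITGB6 and ITGB8 stayed under the mean of 1 RPKM, and the highest value among them was 0.951 RPKM, for ITGB4 in wt. ITGB4, the partner of the alpha 6 chain in hemidesmosomes, had 0.552 RPKM in S473D and 0.896 in S473A. ITGA9 had 0.0210 RPKM in S473D, 0.248 in S473A and 0.205 in wt, from an estimated 4, 58 and 42 reads. ITGB8, a partner of the alpha V chain, had 0.418 RPKM in S473D, 0.336 in S473A and 0.393 in wt. ITGA4 was listed at 0 in S473A and ITGB6 at 0 in wt, and neither passed 0.0566 RPKM in any library. Being under that mean, these 8 genes were left out of the counts.

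Transcripts of the proteins that tie integrins to actin were lower in S473D as well, with FERMT2 close to wt. This order depended on the trends on length and GC content. With them removed, S473D minus wt was -0.74 for TNS1, -0.29 for ACTN4, -0.22 for ACTN1 and -0.19 for TLN1 and FERMT2. It was -0.06 for FLNA, -0.05 for VCL, -0.02 for TLN2 and 0.04 for TNS3, against a median of -0.10 for all genes. TNS1, which encodes tensin 1, a linker of beta tails to actin found in fibrillar adhesions, had 1.66 RPKM in S473D, 5.30 in S473A and 4.77 in wt. Only S473D was low, and the other libraries lay close together. The ratio was 0.348 for S473D over wt (interval 0.311 to 0.389), 0.313 for S473D over S473A (interval 0.280 to 0.349) and 1.11 for S473A over wt (interval 1.03 to 1.20). The log2 differences were -1.12 for S473D minus wt and -1.24 for S473D minus S473A, with 6 and 3 of the 11578 genes lower, and none of the 821 genes with transcripts of 8 kb or more were lower in either. With the trends removed, TNS1 ranked 130 and 72 from the lowest of 10786 genes in the same order. TNS3, the other tensin of the set, had 11.3 RPKM in S473D, 13.4 in S473A and 14.1 in wt, a ratio of 0.800 for S473D over wt (interval 0.755 to 0.847).

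TLN1, the gene of the main talin, which activates integrins, had 28.7 RPKM in S473D, 42.9 in S473A and 43.0 in wt. Its log2 difference of -0.57 for S473D minus wt was just short of 1.5-fold. TLN2, the second talin gene, had 2.58 RPKM in S473D, 3.39 in S473A and 3.60 in wt. FERMT2, the gene of kindlin 2, which assists talin, had 22.8 RPKM in S473D, 22.9 in S473A and 23.5 in wt, and its interval for S473D over wt, 0.910 to 1.03, includes 1. VCL, the gene of vinculin, which reinforces the bond of talin to actin, had 47.9 RPKM in S473D, 58.2 in S473A and 56.7 in wt.

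The actin crosslinkers were the most abundant linkers. ACTN1, an alpha-actinin gene, had 121 RPKM in S473D, 158 in S473A and 162 in wt. ACTN4, the second alpha-actinin gene, had 83.1 RPKM in S473D, 126 in S473A and 125 in wt, a ratio of 0.664 for S473D over wt (interval 0.648 to 0.681) and 0.658 for S473D over S473A (interval 0.642 to 0.674). FLNA, the gene of filamin A, had 81.0 RPKM in S473D, 112 in S473A and 112 in wt. For all 3 genes S473D lay below a pair of nearly equal libraries.

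ILK, PINCH and parvin form a complex that sits under the beta tails. The transcript of the kinase-like ILK differed little, and those of its partners were lower in S473D. ILK had 88.4 RPKM in S473D, 89.0 in S473A and 89.9 in wt, and its interval for S473D over wt was 0.944 to 1.02. LIMS1, the gene of PINCH 1, had 11.9 RPKM in S473D, 15.2 in S473A and 15.4 in wt, and is uncertain because the genome holds near-identical partial copies of it. PARVA, the gene of alpha-parvin, had 10.4 RPKM in S473D, 12.5 in S473A and 13.2 in wt. The LIM adaptor gene ZYX, of zyxin, had 41.1 RPKM in S473D, 59.9 in S473A and 57.6 in wt, a ratio of 0.714 for S473D over wt (interval 0.678 to 0.751). TGFB1I1, the gene of HIC-5, a relative of paxillin, had 6.94 RPKM in S473D, 7.85 in S473A and 7.82 in wt, and its interval of 0.761 to 1.03 includes 1.

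The 4 signalling genes were lower in S473D. PTK2, the gene of focal adhesion kinase, had 48.5 RPKM in S473D, 61.0 in S473A and 63.9 in wt. SRC, its partner kinase, had 9.77 RPKM in S473D, 12.4 in S473A and 12.6 in wt. BCAR1, the gene of the scaffold p130Cas that these kinases phosphorylate, had 25.6 RPKM in S473D, 35.9 in S473A and 34.4 in wt. PXN, the gene of paxillin, had 67.3 RPKM in S473D, 86.2 in S473A and 89.4 in wt. Their log2 differences for S473D minus wt ran from -0.41 to -0.34, and for S473A minus wt from -0.07 to 0.06. With the trends on length and GC content removed, those for S473D minus wt ran from -0.33 (PTK2) to -0.07 (SRC).

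**Figure D3:**
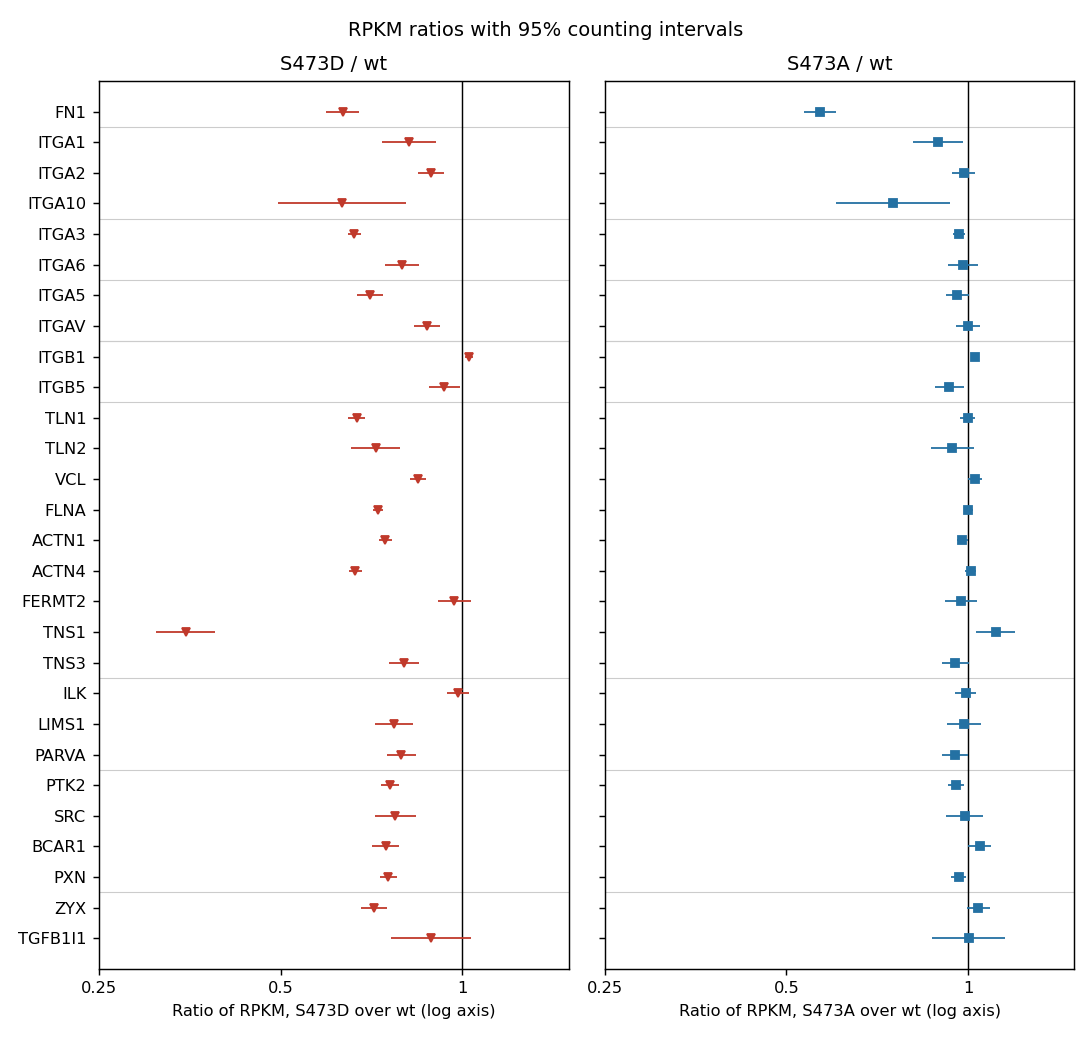
Ratio of RPKM for S473D over wt (left) and S473A over wt (right) for the 28 genes, on log axes, with 95% counting intervals as bars and 1 library per form. On the left 24 intervals lie below 1 (45.6% of all genes), with TNS1 farthest at 0.348, and on the right FN1 lies farthest at 0.569 while 16 intervals include 1 (84.4% of all genes). Intervals narrow with more reads, and the set had a higher median level than all genes (21.9 against 10.2 RPKM).

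Counted over the set, 27 of 28 genes were lower in S473D than in wt, with a median log2 difference of -0.35 and values from -1.12 (TNS1) to 0.04 (ITGB1). Over all genes tested 60.7% were lower, with a median of -0.10. At least 1.5-fold lower were 3 of the 28 genes (TNS1, FN1 and ITGA3), against 3.23% of all genes, and none was 1.5-fold higher, against 6.82%. Just inside that threshold lay ITGA3, at -0.589, and just outside it ACTN4, at -0.585. Centred on the median of all genes, 24 of 28 genes were lower, with ITGB1, ITGB5, ILK and FERMT2 above 0, so the directions of ITGB5, ILK and FERMT2 depend on that scaling. TNS1 was the only gene of the set at least 2-fold lower, against 0.095% of all genes. The counting interval of the ratio lay below 1 for 24 genes, against 45.6% of all genes with a length, included 1 for 3 and lay above 1 for ITGB1, against 26.9%. These intervals narrow with more reads. The set had a median level of 21.9 RPKM against 10.2 for all genes with a length, and longer transcripts, so these shares also reflect read numbers.

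In S473A against wt 19 of 28 genes were lower and 9 higher, with a median log2 difference of -0.02, where all genes tested split into 50.2% lower and 49.8% higher. FN1 was the only gene at least 1.5-fold apart, against 0.147% of all genes that were that much lower and 0.095% that were that much higher. Without FN1 the other 27 genes lay between -0.22 (ITGA10) and 0.13 (TNS1). In S473D against S473A 26 of 28 genes were lower, with a median of -0.29, where 60.7% of all genes were lower with a median of -0.10. TNS1 and ACTN4 were at least 1.5-fold lower there, against 3% of all genes, and none was that much higher, against 6.86%. TNS1 was at least 2-fold lower, against 0.13%. The exceptions above 0 were FN1 (0.14) and ITGB5 (0.00), joined after centring by ITGA1, ITGB1, ILK and FERMT2, which left 22 of 28 lower. Both comparisons with S473D use the same S473D library, and both comparisons with wt the same wt library.

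Transcript length and GC content moved with the difference between S473D and wt over all genes. Across the 10786 genes tested with a GENCODE transcript, Spearman's rho of the S473D minus wt difference was -0.44 with length and -0.26 with GC content, and for S473A minus wt it was -0.01 and 0.08. Across the 28 genes of the set rho was -0.29 with length and -0.53 with GC content for S473D minus wt, and -0.29 and 0.34 for S473A minus wt. The genes of a library share its depth and composition, so these are descriptions across genes. The set had a median transcript length of 4.96 kb and a median GC content of 54.9%, against 3.24 kb and 48.4% for all genes tested. Of the 14 genes of the set with transcripts of 4 to 8 kb, 14 were lower in S473D than in wt (median -0.34), against 78.6% of all genes of that length (median -0.21). Of the 7 with transcripts of 8 kb or more, 7 were lower (median -0.46), against 87.1% (median -0.28).

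With smooth trends on length and GC content removed, the median of the set for S473D minus wt was -0.19, against -0.10 for all genes. Of the 28 genes 26 were below 0, against 65.6% of all genes, with ITGB5 (0.12) and TNS3 (0.04) above it. The removal kept the median of all genes, so a value below 0 can still lie above that median. ITGA10, ITGB1, VCL, TLN2, FLNA, ILK and SRC lay between that median and 0. TNS1 was the only gene still at least 1.5-fold lower, at -0.74, against 3.19% of all genes, while FN1 was at -0.31, ITGA3 at -0.29 and ACTN4 at -0.29. For S473A minus wt, FN1 was at -0.73 with the trends removed. The part of length and GC content in the differences of S473D was not tested.

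**Figure D4:**
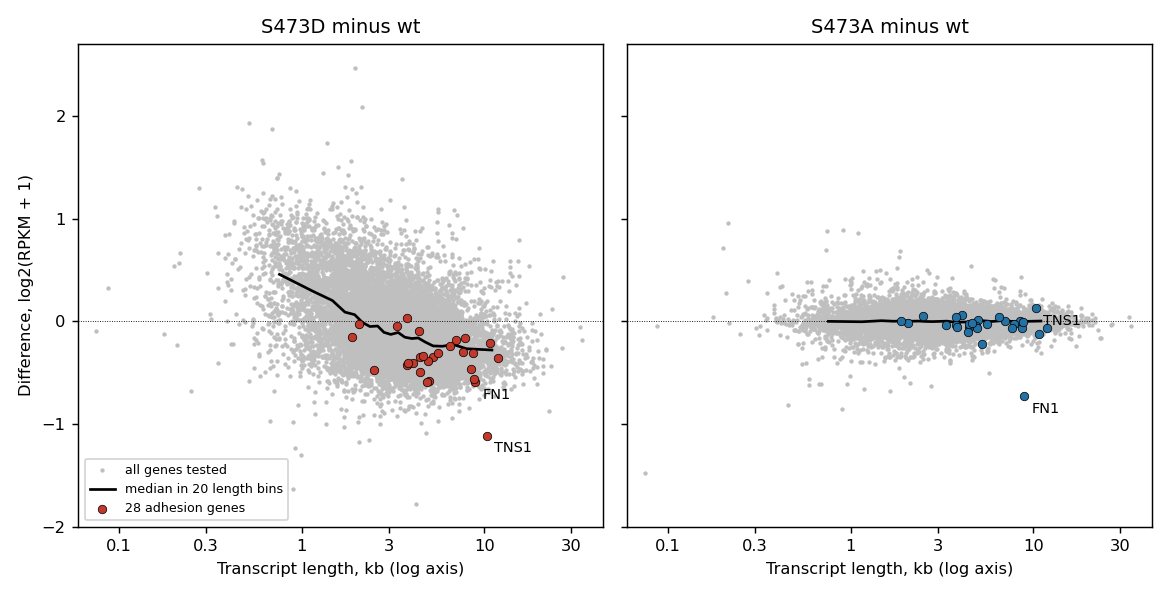
Difference in log2(RPKM + 1) from wt against transcript length in kb (log axis) for S473D (left) and S473A (right), with all genes tested that have a length in grey, their median in 20 length bins as a line and the 28 adhesion genes in colour. On the left the line slopes down and most of the adhesion genes lie under it, TNS1 farthest, and on the right the line is flat and FN1 lies apart at -0.73.

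Among the set's genes averaging 1 RPKM or more, FLNA, ACTN1 and TGFB1I1 hold a CArG box in the 250 bases before a RefSeq start. This box is the element bound by serum response factor, and the 3 genes are shown because they share it. A CArG box, searched on both strands by its palindromic form, occurs in 1.16% of the 35116 windows and in 4 of the 53 windows of the set, the fourth being that of ITGB6. In S473D the genes shown had 0.724 (FLNA), 0.746 (ACTN1) and 0.888 (TGFB1I1) of the RPKM in wt. Genes of the set without the box lay on both sides of these, with ACTN4 (0.664) and TLN1 (0.668) lower and FERMT2 (0.970) and ILK (0.984) higher. The matches describe letters only, and a part of the box in these levels was not tested. The box is in capitals, and the stretches are RefSeq's in GRCh38.p14, at chrX:154374635-154374884 on the minus strand for FLNA, chr14:68977567-68977816 on the minus strand for ACTN1 (1 of 4 windows) and chr16:31472955-31473204 on the plus strand for TGFB1I1 (1 of 3 windows).
FLNA: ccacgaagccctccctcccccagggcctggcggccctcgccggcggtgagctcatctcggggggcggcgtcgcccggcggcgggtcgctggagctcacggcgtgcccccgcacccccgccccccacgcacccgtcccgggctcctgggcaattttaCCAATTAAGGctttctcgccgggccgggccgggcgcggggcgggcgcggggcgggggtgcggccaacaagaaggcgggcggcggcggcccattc
ACTN1: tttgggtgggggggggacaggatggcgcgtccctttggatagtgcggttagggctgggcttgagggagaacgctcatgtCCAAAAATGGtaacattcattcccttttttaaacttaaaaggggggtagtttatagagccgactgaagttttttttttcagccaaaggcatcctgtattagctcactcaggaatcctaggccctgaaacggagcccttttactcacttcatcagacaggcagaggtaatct
TGFB1I1: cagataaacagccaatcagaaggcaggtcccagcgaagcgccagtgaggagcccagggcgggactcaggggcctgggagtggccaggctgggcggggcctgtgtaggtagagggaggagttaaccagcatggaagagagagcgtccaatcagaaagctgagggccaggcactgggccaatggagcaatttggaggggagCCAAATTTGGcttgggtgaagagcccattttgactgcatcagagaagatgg

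A wider list of 93 adhesion genes, of which 90 are in the table and 67 averaged 1 RPKM or more, gives the surroundings of the set. Of the 67 genes 54 were lower in S473D than in wt, against 60.7% of all genes, with a median log2 difference of -0.27. At least 1.5-fold lower were 3, against 3.23% of all genes, and at least 1.5-fold higher were 3, against 6.82%, so both counts lie near those of all genes. Lowest among those with a mean of at least 5 RPKM were ASAP1, a GTPase activator of adhesions, at 17.3 RPKM in S473D, 29.2 in S473A and 30.9 in wt, GIT1, a paxillin-binding adaptor, at 12.2, 21.1 and 21.0 RPKM in the same order, and SDC4, the co-receptor syndecan 4, at 60.7, 92.1 and 97.8 RPKM. Highest was LPXN, the gene of leupaxin, a relative of paxillin, at 81.2 RPKM in S473D, 36.7 in S473A and 39.3 in wt, a log2 difference of 1.03. It was followed by the matricellular gene NOV, at 10.9 RPKM in S473D, 7.35 in S473A and 7.32 in wt, and the LIM gene FHL2, at 72.6, 54.6 and 54.3 RPKM. Of 25 signalling genes of adhesions 24 were lower in S473D than in wt, of 26 adaptors and linkers 20, and of 11 other adhesive glycoproteins 7, the last near the 60.7% of all genes.

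In S473A against wt 32 of the 67 genes were lower, against 50.2% of all genes, and 35 higher. None was at least 1.5-fold apart, against 0.147% of all genes that much lower and 0.095% that much higher. Both counts lie near those of all genes. Lowest there among those with a mean of at least 5 RPKM were TGFBI, at 11.6 RPKM in S473A and 13.9 in wt, THBS1, at 45.4 and 48.9, and LPXN, and highest were the kinase gene CSK, at 43.3 and 39.9, FLNC, at 26.6 and 24.6, and RSU1, at 17.8 and 16.5. FN1 was farther from wt in S473A than every gene of the wider list, whose differences ran from -0.34 (EDIL3) to 0.20 (ITGAE). In S473D against S473A 55 of the 67 genes were lower, against 60.7% of all genes, and among those with a mean of at least 5 RPKM GIT1 (-0.75), ASAP1 (-0.73) and SORBS3 (-0.60) were lowest and LPXN (1.13), NOV (0.51) and RAP1B (0.46) highest.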

How the data were processed

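Total RNA of 3 libraries, 1 per form of KAP1, was extracted with TRIzol and prepared by Illumina protocols, per the labels' protocols. Per the submitters' processing notes, Bowtie and Partek were used with build hg19. The sources used here give no version, annotation, strand or counting rule. Values were deposited as log2 of RPKM, taken to have had 0.1 added, since the lowest value of each column is -3.32. RPKM was recovered by undoing this. Of 19076 lines 27 with date-like or repeated symbols were left out. Genes averaging 1 RPKM or more were kept and 170 short RNAs left out, giving 11578. RPKM is relative to all counted reads and keeps any length preference of a library.

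Differences were taken on log2(RPKM + 1), and genes counted at 1.5-fold and 2-fold. Depth was estimated from the steps between low values and GENCODE release 29 transcript lengths, so read numbers are approximate. Alternatives were other pseudocounts and filters, centring, a trimmed mean of log ratios, and trends on length and GC content removed by lowess (fraction 0.2, 2 rounds, statsmodels 0.14.6). No build was converted. GENCODE exons in GRCh38, whose coordinates were not used, overlap on the opposite strand for ILK with TAF10, PXN with PXN-AS1, TLN1 with CREB3, VCL with AP3M1, ACTN4 with CAPN12 and ZYX with EPHA1, and their reads may be shared. The scripts were tested on simulated data. The genes, lists and thresholds were chosen with earlier results of these data known. By the rule for named genes, levels were given for every gene of the set averaging 1 RPKM or more. Those under that mean have levels or a shared maximum. Intervals were given for FN1 and the genes of the set at least 1.5-fold apart. For the wider list, levels were given for up to 3 genes at each end that averaged 5 RPKM or more. Intervals of further genes of the set were added. The planned protein sequences are not shown.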

Additional observations from a re-analysis of the deposited data

How the results depend on the processing

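No paired analysis was possible because each group has 1 library, and for the same reason no library could be left out. Directions of FN1, TNS1, ITGA3 and ACTN4 wherever they were at least 1.5-fold apart were the same under every alternative that gave a value (TNS1 falls below the 5 RPKM filter).
The count of genes of the set at least 1.5-fold apart in S473D against wt, 3 as reported, was 5 with a pseudocount of 0.1, and 1 after centring, after trimmed-mean scaling and after removing the trends. All were lower, and of all genes 3.23% were that much lower as reported and 6.85%, 1.11%, 1.2% and 3.19% in that order. In S473D against S473A, 2 as reported, it was 1 after each of those 3 steps and with a minimum mean of 5 RPKM. All were lower there too, and of all genes 3% were that much lower as reported. That share was 1.12%, 1.2%, 3.35% and 3.03% in the same order.
The median difference of the set in S473D against wt, -0.35 as reported, was -0.25 centred, -0.26 with trimmed-mean scaling and -0.19 with the trends removed. In S473D against S473A, -0.29 as reported, it was -0.19, -0.20 and -0.15 in the same order.
The count of the wider list in S473D against S473A was 7 as reported, where 9.85% of all genes were that far apart. With a pseudocount of 0.1 it was 11, against 14.9%. After centring or trimmed-mean scaling, the split of this count, 5 lower and 2 higher, was 2 lower and 5 higher. In S473D against wt the split of 3 lower and 3 higher was 2 lower and 4 higher. Of all genes the share that much lower also fell, from 3% to 1.12% and 1.2% in S473D against S473A. In S473D against wt it fell from 3.23% to 1.11% and 1.2%. In S473A against wt the counts were the same throughout, while 0.11% to 0.57% of all genes were that far apart. Over all genes, centring moved the median by 0.10. The causes of these shifts were not tested, and the lack of replicates limits every value.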

Other observations

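Outside the rule for named genes because they averaged under 5 RPKM, and chosen after their values were seen, 2 genes of the wider list with low levels stood higher in S473D. SPP1, the gene of osteopontin, a secreted integrin ligand, had 5.21 RPKM in S473D, 1.301 in S473A and 1.19 in wt. ITGAE, the alpha chain that binds E-cadherin in lymphocytes, had 5.91 RPKM in S473D, 3.69 in S473A and 3.07 in wt, while the leukocyte markers CD14 and PTPRC were at most 0.175 RPKM in any library.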
